A study of Homo sapiens with 3 samples.

Results

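The genes described here encode 10 molecules outside the B7 family with which tumour cells engage natural killer (NK) cells, T cells and macrophages: CD47, PVR, NECTIN2, NECTIN3, LGALS9, TNFRSF14, MICA, MICB, ULBP2 and NT5E. They were taken by name from the 58735 genes of the count tables, and all 10 were among the 19849 genes that reached 10 counts over the 3 libraries together. RNA-seq had been made from DU145 cells, a human castration-resistant prostate cancer line of epithelial character that grows without androgen, to examine what follows from knockdown of PD-L1, the B7-family ligand encoded by CD274. There was 1 control library, and there were 2 libraries labelled as PD-L1 knockdown, Knockdown1 and Knockdown2. The study's methods name the sequenced cells as DU145 and PD-L1sh1/2, and the 2 are taken here as shRNA 1 and shRNA 2. For its knockdown lines in general the study describes an shRNA in the lentiviral vector pLKO.1, with the empty vector as control, and prints 1 shRNA sequence. Whether the sequenced control carried the empty vector is not stated. The methods describe stable knockdown lines selected with puromycin. All libraries were poly(A)-selected, and each was sequenced once. The sample labels name DMEM as the medium and the study's methods EMEM, the series text names BCPAP in place of DU145, and the control's count column is headed RBM45_control.

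CD274 itself had 204, 213 and 224 counts in the control, Knockdown1 and Knockdown2 libraries. Its level in CPM (counts scaled to the library's total) was 1.04 times (95% counting interval 0.857 to 1.27) and 1.02 times (0.844 to 1.24) the control level. The RNA counts thus go against the labels, and the libraries are called by their labels throughout. The paper checked PD-L1 in its knockdown DU145 cells by Western blot, which measures protein, whereas only RNA is counted here. Total counts were 14733088, 14738298 and 15786457 in that order, and 3 counts, the limit that a count of 0 allows, equalled between 0.190 and 0.204 CPM. All 5 epithelial markers were present, with EPCAM at 755 to 907 counts. KLK3, TMPRSS2 and FOLH1, markers of androgen-dependent luminal cells, were at 0 in every library. Of 13 markers of leukocytes, fibroblasts and endothelium, 5 were at 0 in every library, namely CD3E, CD3D, MS4A1, NKG7 and KLRD1. Of the others only CD14, with 3 to 15 counts, and COL1A1, with 98 to 149 counts, exceeded 10 counts in a library, and the 13 summed to 8.21 to 10.8 CPM. Intervals and limits given here cover counting error only, and no label says that the 2 shRNA libraries are repeats of 1 culture.

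NK cells are switched on through the receptor NKG2D, which reads MICA, MICB and the ULBP proteins, molecules that resemble MHC class I and appear on stressed and transformed cells. The nectin family member PVR (CD155) and NECTIN2 (CD112) are read by the activating receptor DNAM-1 and by the inhibitory receptor TIGIT, and NECTIN2 also by the inhibitory receptor PVRIG. CD47 gives phagocytes a signal to spare the cell through SIRPα, TNFRSF14 (HVEM) is read by BTLA and CD160, galectin-9 (LGALS9) binds TIM-3, and NT5E (CD73) makes extracellular adenosine, which dampens T cells and NK cells.

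MICA and MICB carry like promoters, and these are printed because a shared motif lies at nearly the same place in both. The pair had the 2 highest ratios to the control among the well-counted ligands in the Knockdown2 library, whereas in Knockdown1 MICB was at 0.983 times the control. Whether the motif bears on these ratios was not tested. RefSeq lists a promoter for all 10 genes (build GRCh38.p14). In the 250 bases before the listed start, a search on both strands for GAANNTTC, the paired core of a heat shock element, matched MICA and MICB and none of the other 8 genes, against 5.78% of 35116 promoters. Both are on the plus strand, MICA at chr6:31403345-31403594 and MICB at chr6:31497895-31498144, and the match, in capitals, begins 135 and 139 bases before the start.
MICA: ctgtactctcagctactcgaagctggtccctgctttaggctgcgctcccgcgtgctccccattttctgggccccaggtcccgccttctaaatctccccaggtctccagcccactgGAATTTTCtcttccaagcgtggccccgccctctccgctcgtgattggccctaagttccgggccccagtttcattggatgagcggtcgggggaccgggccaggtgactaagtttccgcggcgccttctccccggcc
MICB: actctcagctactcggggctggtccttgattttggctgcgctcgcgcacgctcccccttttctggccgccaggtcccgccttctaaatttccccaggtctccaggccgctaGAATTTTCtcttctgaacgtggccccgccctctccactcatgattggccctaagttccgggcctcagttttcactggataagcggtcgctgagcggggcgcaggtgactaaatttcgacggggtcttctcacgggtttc
Over 246 aligned bases the 2 promoters were identical at 209, or 85.0%, so the 2 matches are not independent of each other. RefSeq's start of each gene lies inside the gene as annotated by GENCODE, which lists further starts upstream. None of the other motifs searched contains this one or is contained in it. GGGCGG, a GC box, was found before 7 of the 10 genes and 42.6% of all promoters, CCAAT before MICA, MICB and ULBP2 and 32% of all promoters, and TATAAA before 0 of the 10 and 10.7% of all promoters. A match describes the letters and is no evidence that a factor binds there.

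The levels of the 10 genes, scaled by gene length and library size (FPKM), ran from among the highest of the tested genes to near the limit of detection. PVR, at 56.8, 57.4 and 71.4 FPKM in the control, Knockdown1 and Knockdown2 libraries, and NT5E, at 61.5, 56.8 and 56.6 FPKM, were highest, above 97.2% and 97.0% of the tested genes. NT5E was first in the control and PVR in the libraries labelled as knockdown, and their ranges overlapped. Next came NECTIN2 at 20.7, 21.1 and 25.4 FPKM, MICB at 16.1, 15.9 and 20.8 FPKM, and MICA at 11.6, 14.1 and 15.2 FPKM. The ranges of NECTIN2 and MICB overlapped, while MICA lay below MICB in every library and over its whole range. CD47 followed at 7.92, 7.22 and 7.17 FPKM and NECTIN3 at 3.23, 3.41 and 2.57 FPKM. ULBP2 at 0.599 to 1.10 FPKM, TNFRSF14 at 0.217 to 0.397 FPKM and LGALS9 at 0.0237 to 0.118 FPKM were lowest, and the order of all genes after the first 2 was identical in the 3 libraries. In bulk RNA a lower level in every cell and fewer cells with the transcript cannot be told apart.

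**Figure D1:**
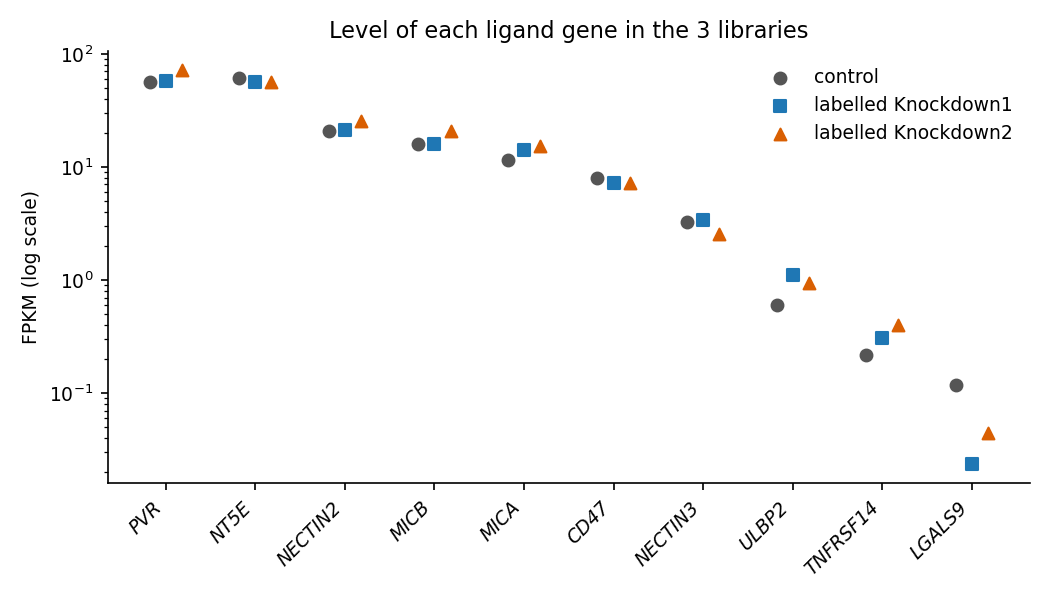
Level of each ligand gene in each library, in FPKM on a log axis, with 1 point per library and no error bars. PVR and NT5E lie near 60 FPKM in every library, and LGALS9 lies between 0.0237 and 0.118 FPKM.

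Comparing the 2 libraries labelled as knockdown with the control asks whether these ligands differ with the PD-L1 shRNA. None of the 10 genes passed a Benjamini-Hochberg adjusted p under 0.05 in edgeR's quasi-likelihood test, against 70 of all 19849 tested genes, or 0.353%. Likewise 0 of 10 passed an unadjusted p under 0.05 with an absolute log2 fold change above 1, against 2.48% of the tested genes. At an unadjusted p under 0.05 alone, edgeR listed 1 of 10, MICA, against 11.7% of the tested genes, whereas DESeq2 and limma-voom listed 0 of 10 at either level. The median log2 fold change of the 10 genes was 0.17, beside 0.00 over all tested genes, and 6 of the 10 had a positive sign, beside 50.2% of all tested genes. These p-values rest on 1 residual degree of freedom, with the spread pooled over genes, so a p that misses the threshold does not show equal levels. In the main edgeR fit the pooling was complete, so a gene's own difference between the libraries labelled as knockdown had no weight in its SE or p.

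The 7 ligands that averaged 100 counts or more (PVR, NT5E, NECTIN2, MICB, MICA, CD47 and NECTIN3) allow each library to be compared with the control within narrow counting intervals. In the Knockdown1 library 0 of the 7 lay above 1.25 times the control or below 0.8 times, bounds set after the values were seen, against 10.9% of 10861 genes counted as well. Knockdown2 had 3 of the 7 past them, MICA and MICB higher and NECTIN3 lower, against 23.8% of those genes. The median log2 ratio of the 7 was 0.01 in Knockdown1 and 0.28 in Knockdown2, beside 0.00 and 0.00 over all such genes. These ratios compare single libraries and carry no test of the condition.

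**Figure D2:**
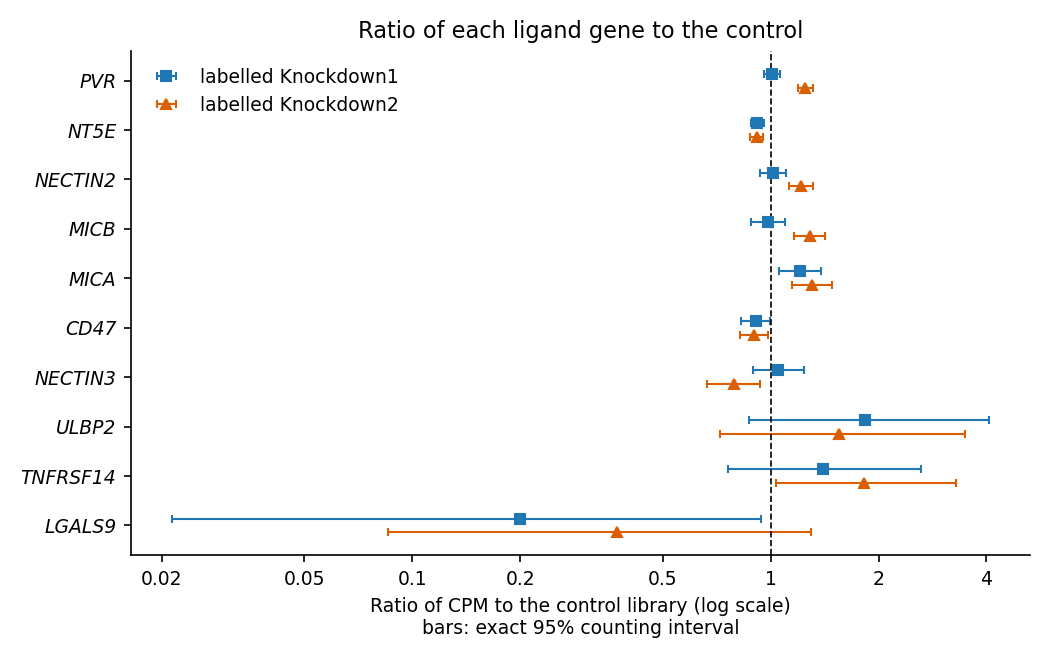
CPM ratio of each library labelled as knockdown to the control for each ligand gene, on a log axis, with exact 95% counting intervals as bars. PVR, NECTIN2 and MICB are near 1 in Knockdown1 and between 1.22 and 1.28 in Knockdown2, while CD47 and NT5E are near 0.9 in both.

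MICA (ENSG00000204520, chromosome 6, 31399784 to 31415315, plus strand), a stress-induced NKG2D ligand, had 411 counts in the control, 496 in Knockdown1 and 573 in Knockdown2, which is 27.9, 33.7 and 36.3 CPM. Of the well-counted ligands it was the only one with both libraries labelled as knockdown above the control by more than counting error, at ratios of 1.21 (1.06 to 1.38) and 1.30 (1.14 to 1.48). Its fitted fold was 1.26 (95% interval 1.005 to 1.57), with a log2 fold change of 0.33 ± 0.16 (SE), an unadjusted p of 0.0452 and an adjusted p of 0.415 in edgeR. Of the well-counted genes, 9.39% had a ratio as high or higher in Knockdown1 and 9.05% in Knockdown2, so MICA did not stand apart from the general spread of genes. MICB (ENSG00000204516, chromosome 6, 31494881 to 31511124, plus strand), the neighbouring and closely related NKG2D ligand, had 669, 658 and 920 counts, or 45.4, 44.6 and 58.3 CPM. Control and Knockdown1 were alike here and Knockdown2 was higher, at ratios of 0.983 (0.882 to 1.10) and 1.28 (1.16 to 1.42). MICB had a fitted log2 fold change of 0.19 ± 0.15 (adjusted p = 0.653, edgeR), and the libraries labelled as knockdown differed from each other by a ratio of 1.31 (1.18 to 1.44).

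The 2 genes share sequence, with 8.77% of the 31-base words of MICA's transcripts found in a single transcript of MICB and 7.48% of MICB's in a single transcript of MICA. Over all other genes the shared words were 15.7% for MICA and 14.2% for MICB. How reads that match more than 1 gene were counted is not given in the sources used here. The summed counts of MICA and MICB, which do not depend on how reads were split between the 2, were 1080, 1154 and 1493. Their ratios were 1.07 (0.982 to 1.16) and 1.29 (1.19 to 1.40). MICA also shares 62 exonic bases, or 2.60% of its length, with the noncoding gene HCP5 on the same strand, which had 92, 112 and 105 counts. ULBP2 (ENSG00000131015, chromosome 6, 149942000 to 149949235, plus strand), an NKG2D ligand anchored to the membrane by lipid, had only 12, 22 and 20 counts, or 0.814, 1.49 and 1.27 CPM. Both of its ratios, 1.83 (0.868 to 4.06) and 1.56 (0.724 to 3.49), had intervals that include 1, and its adjusted p was 0.678, so a difference was not detectable at this depth. Of the 31-base words of ULBP2, 41.7% also occur in a single transcript of RAET1L, and 44.2% in any other gene. RAET1L had 2, 0 and 0 counts, and since the treatment of reads matching both is not known, the ULBP2 values are uncertain.

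Of the 5 other NKG2D ligands 3 could be tested and 0 had an adjusted p under 0.05. ULBP1, named after its values were seen as are ULBP3 and RAET1G, had 117, 88 and 87 counts (adjusted p = 0.488), ULBP3 had 30, 62 and 54 counts (unadjusted p = 0.0231, adjusted p = 0.345), and RAET1G had 17, 17 and 11 counts. ULBP1 and ULBP3 thus lay on opposite sides of the control. Over the 8 NKG2D ligands together the counts were 1261, 1346 and 1666, at ratios of 1.07 (0.987 to 1.15) and 1.23 (1.15 to 1.33). MICA and MICB made up 82.0%, 78.8% and 84.4% of their summed FPKM.

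PVR (ENSG00000073008, chromosome 19, 44643798 to 44663583, plus strand), the higher of the ligands read by DNAM-1 and TIGIT, had 2967, 2986 and 3972 counts, or 201, 203 and 252 CPM in the control, Knockdown1 and Knockdown2 libraries. The first 2 libraries were within counting error of each other, at a ratio of 1.01 (0.956 to 1.06), and Knockdown2 was higher than both, at 1.249 (1.19 to 1.31) times the control and 1.24 (1.18 to 1.30) times Knockdown1. Its fitted log2 fold change was 0.18 ± 0.12 (adjusted p = 0.571, edgeR), and its Knockdown2 ratio lay just inside the bound of 1.25. NECTIN2 (ENSG00000130202, chromosome 19, 44846175 to 44889228, plus strand) showed the same order, with 1152, 1168 and 1502 counts, or 78.2, 79.2 and 95.1 CPM. Its ratios were 1.01 (0.934 to 1.10) and 1.22 (1.13 to 1.32), with a fitted log2 fold change of 0.16 ± 0.13 (adjusted p = 0.662, edgeR). NECTIN3 (ENSG00000177707, chromosome 3, 111070071 to 111275563, plus strand), an adhesion partner of PVR and the nectins, had 297, 312 and 251 counts, or 20.2, 21.2 and 15.9 CPM. Here Knockdown2 was the low library, at 0.789 (0.664 to 0.936) times the control, while Knockdown1 stood at 1.05 (0.893 to 1.24), and the fitted log2 fold change was -0.12 ± 0.18 (adjusted p = 0.853, edgeR).

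PVR and NECTIN2 lie 182591 bases apart on chromosome 19, and MICA and MICB lie 79565 bases apart on chromosome 6. The 20 other well-counted genes within 500 kb of PVR and NECTIN2 had a median log2 ratio of 0.08 in Knockdown1 and 0.18 in Knockdown2, with a range of -0.54 to 0.62 in the latter. The 31 around MICA and MICB had medians of 0.09 and 0.19. NECTIN3 and CD47 are farther apart, 2978208 bases on chromosome 3. The 8 other well-counted genes between them or within 500 kb on either side had medians of -0.19 and -0.19. Their ranges were -0.51 to 0.39 in Knockdown1 and -0.63 to -0.05 in Knockdown2. Neighbours of the first 2 pairs were thus above the control on the median and those of NECTIN3 and CD47 below it, in both libraries. Over all well-counted genes the medians were -0.0005 in Knockdown1 and 0.0012 in Knockdown2. The neighbours' ratios were not adjusted for the trend over GC content described below, whose class medians ran from -0.23 to 0.27 in Knockdown2. Whether the neighbours differ by their region was not tested.

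CD47 (ENSG00000196776, chromosome 3, 108043094 to 108091862, minus strand) had 967, 878 and 932 counts, or 65.6, 59.6 and 59.0 CPM. Both libraries labelled as knockdown were slightly below the control, at ratios of 0.908 (0.827 to 0.996) and 0.899 (0.821 to 0.985), and their own ratio was 0.991 (0.903 to 1.09). The fitted fold was 0.906 (0.752 to 1.09; adjusted p = 0.726, edgeR), and 22.2% and 29.2% of the well-counted genes were as low or lower in Knockdown1 and Knockdown2. NT5E (ENSG00000135318, chromosome 6, 85449584 to 85495791, plus strand), the enzyme that turns AMP into adenosine at the cell surface, had 4141, 3804 and 4051 counts, or 281, 258 and 257 CPM. Like CD47, it was below the control in both libraries by more than counting error, at ratios of 0.918 (0.879 to 0.960) and 0.913 (0.874 to 0.954). The fitted fold of NT5E was 0.918 (0.787 to 1.07; adjusted p = 0.708, edgeR).

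TNFRSF14 (ENSG00000157873, chromosome 1, 2555639 to 2565382, plus strand), the receptor HVEM that also acts as a ligand, had 20, 28 and 39 counts, or 1.36, 1.90 and 2.47 CPM. Its ratios were 1.40 (0.761 to 2.62) and 1.82 (1.04 to 3.29), with an adjusted p of 0.623 in edgeR. An antisense gene, TNFRSF14-AS1, covers 13.4% of its exonic bases and had 0, 3 and 1 counts. LGALS9 (ENSG00000168961, chromosome 17, 27629798 to 27649560, plus strand), galectin-9, was barely detected, with 10, 2 and 4 counts, or 0.679, 0.136 and 0.253 CPM. Knockdown1 thus lay under the limit of 3 counts, and the ratios of 0.1999 (0.0213 to 0.938) and 0.373 (0.0855 to 1.29) rest on 16 counts in all (adjusted p = 0.536, edgeR). The copies LGALS9B and LGALS9C, with which it shares sequence, had 0 counts.

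The well-counted ligands differ in the base composition of their transcripts, and across genes at large the ratios to the control varied with it. When all well-counted genes were split by GC content into 5 classes of equal size, the median log2 ratio went from -0.13 in Knockdown1 and -0.23 in Knockdown2 in the class with the lowest GC content (30.2% to 40.7%) to 0.14 and 0.27 in the class with the highest (57.8% to 74.5%). CD47, at 38.4% GC, and NECTIN3, at 38.9%, are in the lowest class, NT5E, at 45.2%, is in the next, and MICB, at 50.2%, is in the middle one, whose medians were -0.01 and -0.01. PVR, at 56.5%, and MICA, at 55.0%, are in the next above it, with medians of 0.08 and 0.13, and NECTIN2, at 59.4%, is in the highest.

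With the trends over GC content and length removed from every library, the ratios to the control in Knockdown1 and Knockdown2 were 1.00 and 1.06 for CD47, 0.936 and 0.964 for NT5E, and 0.920 and 1.03 for NECTIN2. The corresponding ratios were 0.923 and 1.10 for PVR, 1.14 and 0.921 for NECTIN3, 1.10 and 1.15 for MICA, and 0.940 and 1.24 for MICB. Thus the fitted log2 fold change turned its sign for CD47 (0.04), NECTIN2 (-0.03) and NECTIN3 (0.05), went from 0.18 to 0.01 for PVR and from 0.33 to 0.17 for MICA, and was 0.13 for MICB beside 0.19 before. The median over the 7 genes was 0.04, beside 0.16 before, and 0 of the 10 genes had an unadjusted p under 0.05. Whether the trend with GC content belongs to the libraries or to the cells was not tested.

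**Figure D3:**
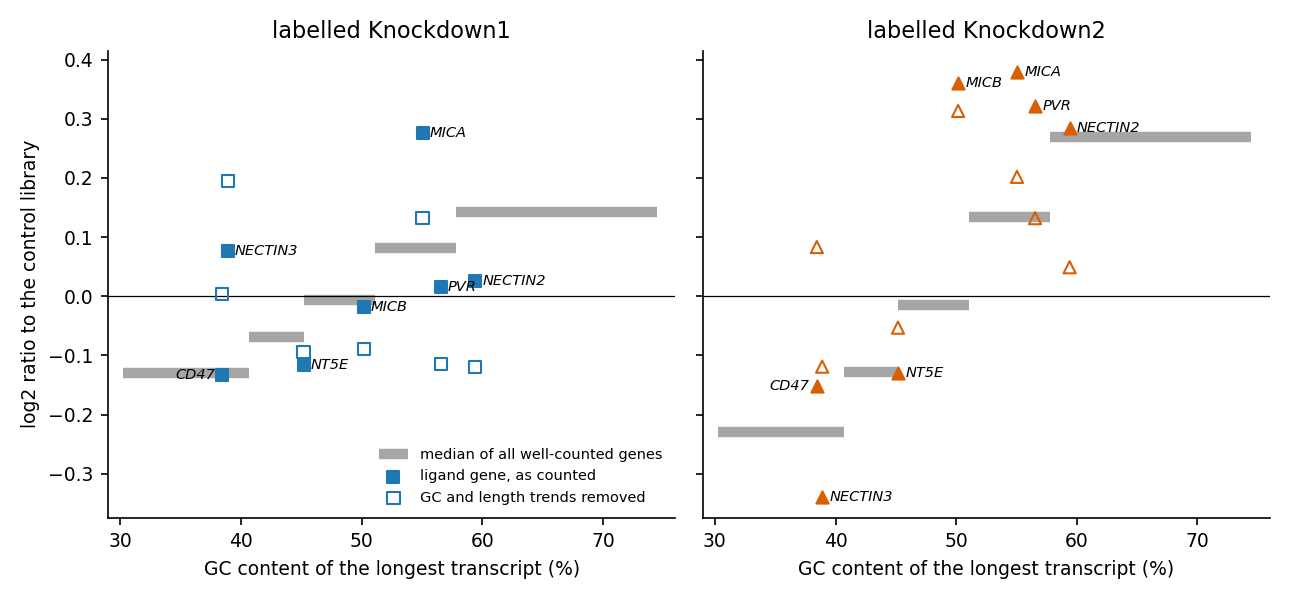
log2 CPM ratio to the control against the GC content (%) of the longest transcript for the 7 well-counted ligand genes, in 1 panel per library labelled as knockdown. Filled points are ratios as counted, open points have the GC and length trends removed, and grey bars are medians of all well-counted genes in 5 classes of GC content, which climb from -0.23 to 0.27 in Knockdown2.

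Genes of the same ligand systems were followed in 8 lists that hold 63 genes outside the 10. Of these 43 were tested, 25 above and 18 below the control, and 1, ADAM10, had an adjusted p under 0.05 in edgeR, against the 0.353% of all tested genes. ADAM10, a protease that sheds MICA and other surface ligands, had 2992, 2753 and 1509 counts, or 203, 187 and 95.6 CPM. Only Knockdown2 was far below the control, at ratios of 0.920 (0.873 to 0.969) and 0.471 (0.442 to 0.501), and 5 of the 10861 well-counted genes were as low or lower there. ADAM10 fell by 0.52 ± 0.12 (SE) on the log2 scale, with an adjusted p of 0.00689 in edgeR. Both the SE and the p use the spread pooled over genes and do not reflect the gap between its libraries labelled as knockdown. The call was lost in DESeq2 (adjusted p = 1.00), when only genes averaging 100 counts or more were tested (0.0696) and with the GC and length trends removed (-0.32, adjusted p = 0.822). Without Knockdown1 the log2 difference was -1.08, and without Knockdown2 it was -0.11.

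No other tested gene of the lists had an adjusted p under 0.05 in edgeR, and 8 of the 43, ADAM10 included, had an unadjusted p under 0.05, beside 11.7% of all tested genes. CD58, the ligand of CD2 on T cells and NK cells, had 172, 111 and 104 counts, and both libraries labelled as knockdown were low, at ratios of 0.645 (0.504 to 0.824) and 0.564 (0.438 to 0.724). Its log2 fold change was -0.72 ± 0.23 (unadjusted p = 0.0020, adjusted p = 0.154, edgeR) and -0.70 with the GC and length trends removed. LGALS1, which encodes galectin-1, had 3381, 4202 and 4912 counts, with both libraries above the control and a log2 fold change of 0.38 (adjusted p = 0.115), or 0.08 with those trends removed.

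The remaining list genes that averaged 100 counts or more had log2 fold changes closer to 0 than those of LGALS1 and CD58, and the tested genes with fewer counts are not described singly. Among the phagocytosis signals, calreticulin (CALR), which marks cells for uptake, had a log2 fold change of 0.23 (adjusted p = 0.397), and CD24, which like CD47 inhibits uptake, one of -0.23 (adjusted p = 0.360). In the adenosine system the receptor ADORA2B stood at 0.27 (adjusted p = 0.672) and adenosine kinase (ADK) at -0.18 (adjusted p = 0.579), with 5 of 11 tested genes above the control and 6 below. NECTIN1 and CADM1, adhesion molecules of the nectin group, were at 0.13 and 0.08, LGALS8 at -0.24, the lymphotoxin receptor LTBR at 0.17, the protease MMP14 at 0.15 and the CD27 ligand CD70 at 0.19, each with an adjusted p of 0.566 or more.

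**Figure D4:**
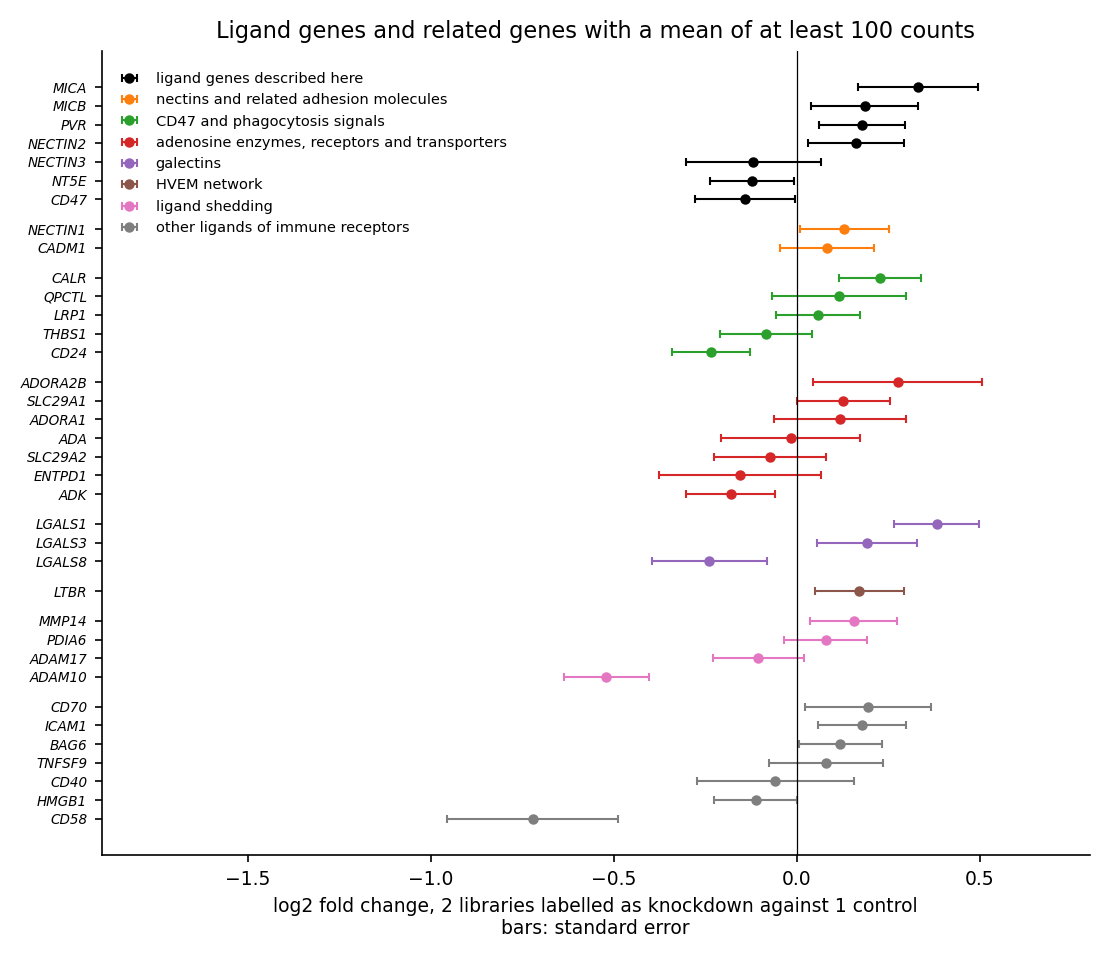
log2 fold change (2 libraries labelled as knockdown against 1 control, edgeR) with its standard error as bars, for the 7 ligand genes and the related genes that averaged 100 counts or more. ADAM10, at -0.52, is the one gene shown with an adjusted p under 0.05, and CD58, at -0.72, is the farthest below 0 of the genes shown.

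Of 13 receptors with which immune cells read such ligands, 5 were at 0 in every library: KLRK1 (NKG2D), TIGIT, SIRPG, NCR1 and KLRC1. More than 10 counts in a library were found for SIRPA, the receptor of CD47, with 554, 482 and 540 counts, for CD160 with 160, 110 and 167 counts, and for PVRIG with 11, 16 and 15 counts. Receptors and ligands were thus measured in a culture in which the leukocyte marker PTPRC had 0, 3 and 1 counts. The marker CD14 had 15, 3 and 10 counts, and the receptor gene CD160 was well above both.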

How the data were processed

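For each of 3 DU145 libraries the authors deposited raw counts of reads per gene and FPKM values. The submitters' processing notes name Bowtie2 2.0.6, TopHat2 2.0.9, Cufflinks 2.1.1 and Cuffdiff 2.1.1. The counting tool, its strand setting and the genome build are not given in the sources used here, so overlapping genes and copies are uncertain. Of 58735 genes, 58690 have the position given in GENCODE 29 (GRCh38). The deposited FPKM values were the counts rescaled by gene length and library, with no further adjustment.

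The 19849 genes that reached 10 counts in total were tested with edgeR 4.0.16 (TMM, glmQLFit, glmQLFTest) in R 4.3.3, with the 2 libraries labelled as knockdown against 1 control and adjustment by Benjamini-Hochberg over all tested genes. The common dispersion was 0.00719. The fit was tested on simulated data. DESeq2 1.42.0, limma-voom 3.58.1, other scalings and filters, offsets for trends over GC content and transcript length (mgcv 1.9.3; 11 tested genes had no GC value), and the omission of each library labelled as knockdown were alternatives. Ratios of CPM carry exact 95% intervals for counts. The libraries labelled Knockdown1 and Knockdown2 differed by more than sampling noise (chi-square per degree of freedom 5.57 over 18413 genes). As p-values rest on these libraries alone, they are set against the spread between the 2 libraries labelled as knockdown, pooled over genes. That spread holds any technical difference and any difference between shRNA 1 and shRNA 2, which cannot be told apart.

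The members and lists were chosen with earlier results of these data known. All 10 members are named, and of each list outside them the genes with an adjusted p under 0.05 and the 2 with the largest absolute log2 fold change among those averaging 100 counts or more. Receptors and markers of other cell types are named where they exceeded 10 counts in a library. Some luminal marker genes are not reported here. Some genes that overlap or share sequence with a member, and those said to be chosen after their values were seen, are also named. Among further overlaps, CEACAM19 (72, 64 and 90 counts) shares 121 exonic bases, 3.44%, with PVR on the same strand. AC011481.2 shares 128 with NECTIN2 on the opposite strand, and AC015688.4 shares 294 with LGALS9. NECTIN2 has 3.69% of its 31-base words in common with a single transcript of AC092916.2, and CD47 0.471% with a single transcript of AL365181.1. Over all other genes the shared words were 6.38% for NECTIN2, 1.53% for CD47 and 22.7% for LGALS9.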

Additional observations from a re-analysis of the deposited data

How the results depend on the processing

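Of the 10 ligand genes, 0 had an adjusted p under 0.05 and 0 passed the fold threshold in every alternative that was run with a test. When only genes averaging 100 counts or more were tested, LGALS9, ULBP2 and TNFRSF14 were left out, so this covers 7 of the 10 there. Among the related genes the count of 1 (ADAM10) went to 0 with DESeq2, with only genes averaging 100 counts or more, and with the GC and length trends removed. The last also turned the log2 fold changes of CD47 to 0.0441, of NECTIN2 to -0.0316 and of NECTIN3 to 0.0454. Over all genes the calls at an adjusted p under 0.05 went from 70 to 5 with these trends removed, to 6 with DESeq2 and to 42 with limma-voom. With 1 control library, leaving out a library labelled as knockdown gave values with no test. Without Knockdown1 the log2 values of LGALS9 and ULBP2 were -1.07 and 0.57, beside -1.75 and 0.76 with both, and without Knockdown2 those of MICB and NECTIN3 were -0.02 and 0.08, beside 0.19 and -0.12 with both. Values with a library left out are log2 CPM differences drawn toward 0 at low counts, and those with both are fitted. For LGALS9, at -1.58 without Knockdown2, the change of measure therefore enters as well as the omission. The depth limits LGALS9, ULBP2 and TNFRSF14, which had at most 39 counts in a library.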
